A study of Mus musculus with 6 samples.

Results

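The 9 genes described here encode the mouse MHC class II machinery. They were chosen by gene symbol from a table of 20138 genes and are the class II chains H2-Aa, H2-Ab1 and H2-Eb1, the peptide loading chains H2-DMa, H2-DMb1, H2-DMb2 and H2-Oa, the invariant chain Cd74 and the transactivator Ciita. All 9 were found, and the choice was made with the folds of this comparison already known, so their values are a description and support no further claim. Whole kidneys of 6 mice at postnatal day 35 were compared by RNA sequencing. The 3 mice of the group called Pkd2-KO carry Pkhd1Cre and Pkd2 F/F, and the 3 mice of the group called Pkd2-miR-214-KO carry Pkhd1Cre, Pkd2 F/F and miR-214null. Both groups thus share the Cre-driven deletion of Pkd2, the gene of the cation channel polycystin-2, and no group with intact Pkd2 was analysed here. The Pkhd1 promoter directs Cre to kidney tubules, while the labels name no cell type for the miR-214 null allele.

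MHC class II molecules are pairs of an alpha and a beta chain that show peptides from endosomes to CD4+ T cells. They are made in dendritic cells, B cells and activated macrophages, and interferon-gamma can induce them in other cells, kidney tubule epithelium among them. The invariant chain Cd74 guards the peptide groove until the endosome, H2-M (H2-DMa with an H2-DMb chain) loads the peptide, and H2-O (H2-Oa with H2-Ob) restrains H2-M, mainly in B cells. Ciita binds no DNA itself but is recruited by factors sitting on an X box and a Y box upstream of these genes.

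The values are the authors' deposited log2 folds, 1 per gene, fitted over the 3 animals of each genotype. Values per library were not analysed here, so neither the value in each animal nor the overlap of the groups is given, and the depth is unknown. A positive fold means more RNA in Pkd2-miR-214-KO. The table does not state this direction, which was read from the sign of Mir214, the deleted gene, at -7.62 ± 1.08 (SE) on the log2 scale of the authors' deposited table. Mir214 is therefore no separate check of the labels. Pkd2 had -0.11 ± 0.23 there. The SE is approximate throughout and was computed from each fold and its likelihood ratio. In whole kidney, fewer cells of a type and less RNA per cell cannot be told apart.

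The upstream stretches of the class II genes are shown first, because Ciita is known to act on class II genes through sites upstream of their starts. The RefSeq promoter table (GRCm38.p6) matched 6 of the 9 genes (H2-Aa, H2-Eb1, H2-DMa, H2-DMb1, H2-DMb2 and H2-Oa) with 7 promoters, and 2 further chain genes, H2-Ob and H2-Eb2. The 250 bases before each start site were searched on both strands for the X motif AGNNAC, followed after 26 to 30 bases by the Y motif ATTGG. These RefSeq start sites differ from the ends of the gene positions given below, which are from GENCODE M21. By those positions the H2-DMb1 and H2-DMb2 stretches lie inside the gene, and that of H2-Oa crosses its lower end. The stretches that hold the pair on the gene's own strand follow, 5′ to 3′, with the motifs in capitals. Those of H2-Eb1 (chr17:34305765-34305820), H2-DMb1 (chr17:34153086-34153142), H2-Oa (chr17:34092292-34092348) and H2-Eb2 (chr17:34325532-34325587) lie on the plus strand.
H2-Eb1: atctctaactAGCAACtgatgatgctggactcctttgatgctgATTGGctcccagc
H2-DMb1: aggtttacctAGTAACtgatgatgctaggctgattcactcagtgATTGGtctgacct
H2-Oa: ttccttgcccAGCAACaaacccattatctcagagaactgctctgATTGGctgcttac
H2-Eb2: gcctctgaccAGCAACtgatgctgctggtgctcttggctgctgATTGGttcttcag

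The pair was present upstream of 3 of the 6 matched genes, and in 260 of all 32851 promoters of the same length (0.791%). The bases between the motifs numbered 28 in H2-DMb1 and H2-Oa and 27 in H2-Eb1 and H2-Eb2. H2-Ob (chr17:34238807-34238860, plus strand) holds the motifs 25 bases apart, outside that spacing and inside the wider one of 24 to 32 bases, which 1.38% of all promoters hold. H2-Aa (chr17:34287859-34287915, minus strand) and H2-DMb2 (chr17:34145115-34145171, plus strand) hold the Y motif, which alone is common (33.8% of promoters), without the X motif at that spacing. The 3 stretches are shown for comparison, with the motifs found in capitals.
H2-Ob: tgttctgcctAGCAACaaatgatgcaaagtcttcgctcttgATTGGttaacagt
H2-Aa: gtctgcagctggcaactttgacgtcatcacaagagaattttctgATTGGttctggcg
H2-DMb2: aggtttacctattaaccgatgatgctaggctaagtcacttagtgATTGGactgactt

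The H2-DMb1 and H2-DMb2 stretches have the same base at 50 of 57 positions when set side by side. Of the 2 H2-DMa promoters, the downstream one holds a Y motif at -198 from its start and neither holds the pair. A match is a description of letters, not evidence of a bound site, and a missing match says nothing of the factors.

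**Figure D1:**
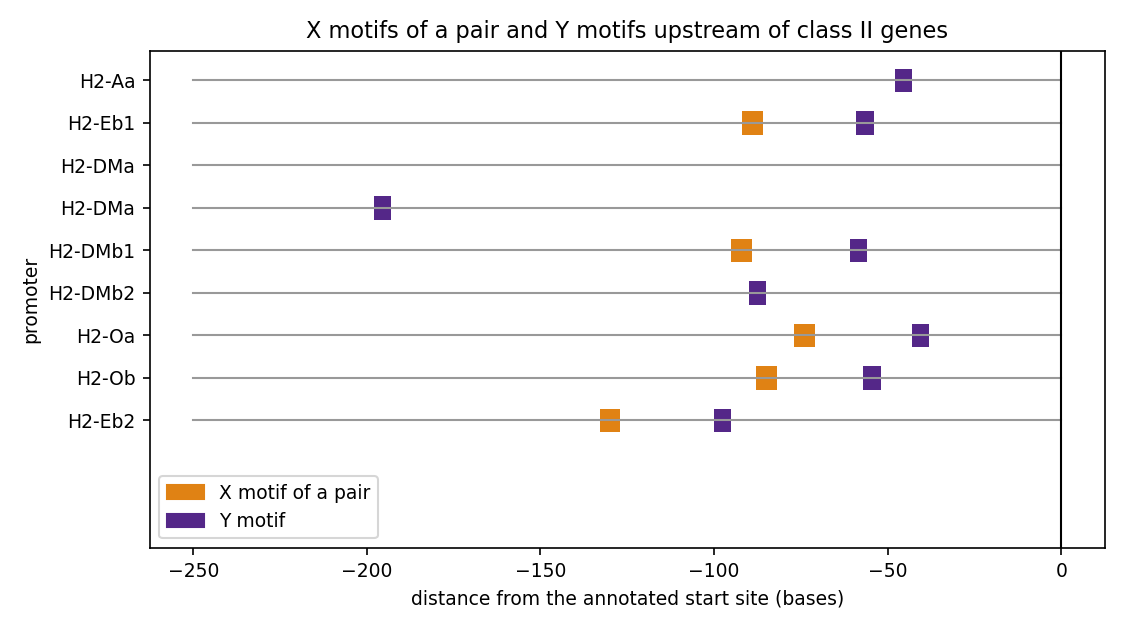
Motif positions in 9 promoters of class II genes, in bases from the annotated start site (x axis), on the gene's own strand. Orange bars are X motifs that lie 24 to 32 bases before a Y motif, and purple bars are Y motifs. In H2-Eb1, H2-DMb1, H2-Oa, H2-Ob and H2-Eb2 the X motif stands directly upstream of the Y motif, and the upper H2-DMa promoter (its more upstream start) holds neither.

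The antigen-presenting chains, the invariant chain and Ciita had negative folds of like size. In the authors' deposited table H2-Eb1, H2-Ab1, H2-Aa, Cd74 and Ciita lay between -0.93 and -0.75 on the log2 scale, all with an unadjusted p under 0.05. None of the 9 genes passed an adjusted p under 0.05 in that edgeR likelihood ratio test, a rule passed by 25 of 20138 genes (0.124%). Without adjustment 5 of 9 had a p under 0.05 and a negative fold, against 1.71% of all genes in the authors' deposited table. Since these folds were known when the genes were chosen, nothing is read from that difference. The median over the 9 genes was -0.75, beside a median of 0 over all genes.

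H2-Eb1 encodes the beta chain of the class II molecule I-E and lies on chromosome 17 (mm10, 34305867 to 34316674, plus strand). The authors' deposited table gives it a log2 fold of -0.93 ± 0.31 (SE, adjusted p = 0.315). The level in Pkd2-miR-214-KO was thus 52.7% of that in Pkd2-KO, with an approximate 95% interval of 34.7% to 79.8%. H2-Ab1, the beta chain of I-A (34257689 to 34269419, plus strand), had -0.86 ± 0.31 in the authors' deposited table (adjusted p = 0.424), or 55.0% of the Pkd2-KO level (36.3% to 83.3%). H2-Aa, the I-A alpha chain that pairs with it (34282744 to 34287823, minus strand), had -0.75 ± 0.31 in the authors' deposited table (adjusted p = 0.727), or 59.3% (38.7% to 90.8%). The 3 intervals overlap almost completely, so the chains cannot be ordered by their folds.

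Cd74, the invariant chain, stood beside the chains it guards, at -0.80 ± 0.31 in the authors' deposited table (adjusted p = 0.575), or 57.4% of the Pkd2-KO level (37.8% to 87.2%). Ciita, the transactivator (chromosome 16, 10480059 to 10528418, plus strand), had -0.87 ± 0.42 in the authors' deposited table (adjusted p = 0.950), or 54.6% (30.9% to 96.5%). Its interval ended just short of equality. Among genes of similar mean expression, a smaller SE was held by 94.5% for Ciita, by 92.8% for H2-Eb1, by 92.7% for H2-Ab1, by 90.4% for H2-Aa and by 71.2% for Cd74. These genes were thus estimated with more spread than most genes of their level.

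**Figure D2:**
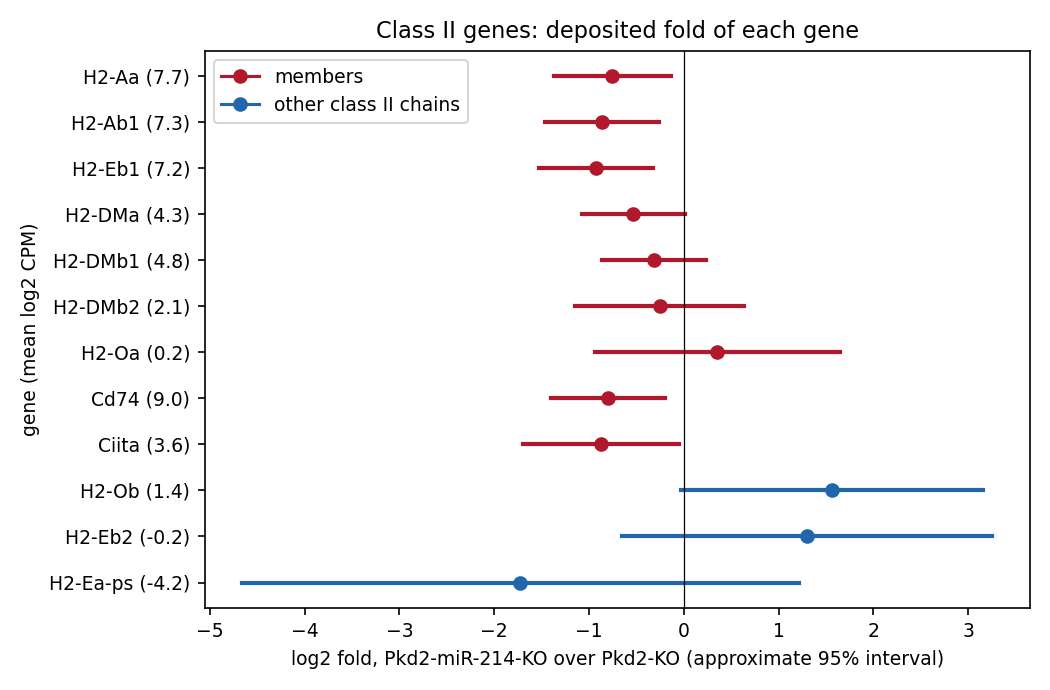
Log2 fold of each gene in Pkd2-miR-214-KO over Pkd2-KO (x axis) with its approximate 95% interval, and the mean log2 CPM beside each name. The 9 genes chosen are red and 3 other class II chains are blue. The intervals of H2-Aa, H2-Ab1, H2-Eb1, Cd74 and Ciita lie below 0, and those of the other 7 genes include 0.

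The peptide loading chains had folds smaller in size, but whether they differ from those of the classical chains was not tested. The approximate intervals of H2-DMa (-1.08 to 0.01) and H2-DMb2 (-1.15 to 0.64) include the folds of H2-Eb1, H2-Ab1, H2-Aa, Cd74 and Ciita. That of H2-DMb1 (-0.86 to 0.23) includes the folds of H2-Aa and Cd74, with that of H2-Ab1 at its lower end. H2-DMa, the H2-M alpha chain (34119541 to 34139101, plus strand), had -0.53 ± 0.28 in the authors' deposited table (unadjusted p = 0.0561, adjusted p = 1), just outside the unadjusted threshold. Ciita (unadjusted p = 0.0373) was just inside it in the authors' deposited table. H2-DMb1 (34153072 to 34160230, plus strand) had -0.32 ± 0.28 and its neighbour H2-DMb2 (34143307 to 34151555, plus strand) -0.25 ± 0.46 in the authors' deposited table, each with an adjusted p of 1. These neighbouring genes encode near-identical H2-M beta chains. Of the 50-base stretches of the longest coding transcript, 27.2% of H2-DMb1 and 29.5% of H2-DMb2 recurred in other genes, so their separate values are uncertain. No such stretch was shared for the other 7 genes. H2-DMa shares 360 exonic bases (10.4% of its exons) with Brd2 on the opposite strand, and the counting's use of strand is not given in the sources used here.

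H2-Oa, the alpha chain of the H2-M inhibitor H2-O (34092340 to 34095234, plus strand), was the 1 gene of the 9 with a positive fold. In the authors' deposited table it had 0.35 ± 0.66 (adjusted p = 1) with an interval of -0.94 to 1.65, which includes the folds of the classical chains. A negative fold was held by 8 of the 9 genes, against 48.2% of all genes. H2-Oa shares 321 exonic bases (22.8%) with BC051537 on the opposite strand, which had 0.76 ± 1.44 in the authors' deposited table and reaches beyond H2-Oa.

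Per length, Cd74 was the most abundant of the 9 and H2-Oa the least. With the authors' deposited mean log2 CPM over all 6 libraries divided by the length of the longest coding transcript, the log2 level per kb was 8.48 for Cd74, 7.53 for H2-Aa, 6.98 for H2-Ab1 and 6.50 for H2-Eb1. H2-DMb1 followed at 4.27, H2-DMa at 3.26, H2-DMb2 at 1.57, Ciita at 1.0 and H2-Oa at 0.06 on that scale. With the length of all annotated exons the order of the 3 classical chains turned around, to 6.28 for H2-Eb1, 5.89 for H2-Ab1 and 5.78 for H2-Aa, so they are not ordered by level either. The other 6 genes kept their order under both lengths. The 5 genes with intervals below 0 thus include the 4 most abundant members and the low-level transactivator.

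**Figure D3:**
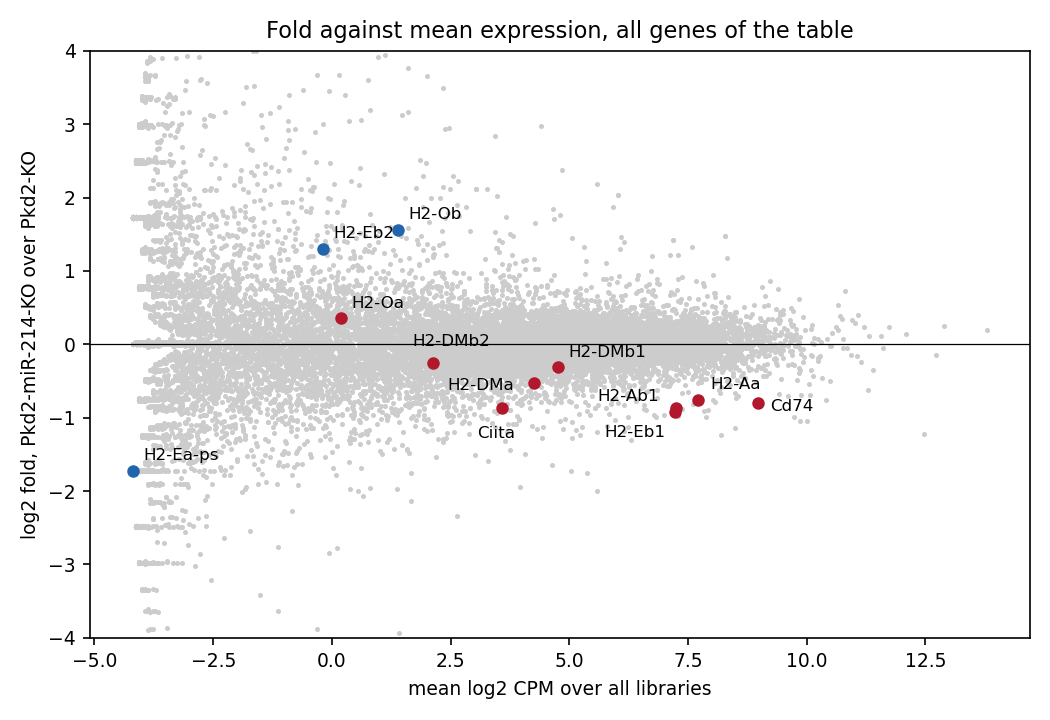
Log2 fold (y axis) against mean log2 CPM (x axis) for all genes of the table in grey, with the 9 genes in red and the other class II chains in blue. H2-Eb1, H2-Ab1, H2-Aa and Cd74 sit at the lower edge of the genes of their expression, and 121 genes with a fold beyond 4 in either direction lie outside the plot.

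The 3 remaining class II chain genes had folds of either sign, and their intervals all include 0. H2-Ob, the H2-O beta chain, had 1.56 ± 0.81 in the authors' deposited table (unadjusted p = 0.0545, adjusted p = 1), the highest positive fold among genes of the class II region. H2-Eb2, a further beta chain gene of the E group, had 1.30 ± 1.0 in the authors' deposited table (adjusted p = 1). H2-Oa, H2-Ob and H2-Eb2, the 3 with positive folds, had levels of 0.06, -0.03 and -1.96 log2 CPM per kb of coding transcript, and H2-Ea-ps, with a negative fold, -4.24. H2-Ea-ps, the I-E alpha chain gene that several mouse strains have inactivated, had -1.72 ± 1.50 in the authors' deposited table at a mean log2 CPM of -4.19. The table's lowest mean is also -4.19 after rounding. With a tolerance of 0.001, 79 genes of that table share this fold, itself included, so it is not read as a direction. None of these 3 genes had an unadjusted p under 0.05, against 1.71% of all genes lower and 3.10% higher.

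In the class II region of chromosome 17, from H2-Oa to H2-Ea-ps (34092340 to 34344645), negative folds were not uniform. The table holds 15 genes that lie wholly in this stretch of 252.3 kb in the GENCODE M21 annotation, 7 of them among the 9. The 5 genes without a class II chain lie between them and had log2 folds from -0.37 to 0.00 (median -0.15) in the authors' deposited table. None of the 5 had an unadjusted p under 0.05, against 1.71% of all genes lower and 3.10% higher. They are Brd2, a bromodomain protein gene (0.00 ± 0.24), the immunoproteasome genes Psmb9 (-0.37 ± 0.32) and Psmb8 (-0.20 ± 0.28), and the peptide transporter genes Tap1 (-0.15 ± 0.27) and Tap2 (-0.12 ± 0.22), all from the authors' deposited table. H2-Ob, at 1.56, adjoins H2-Ab1, at -0.86, and whether these folds differ was not tested, since the covariance of the genes is unknown.

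**Figure D4:**
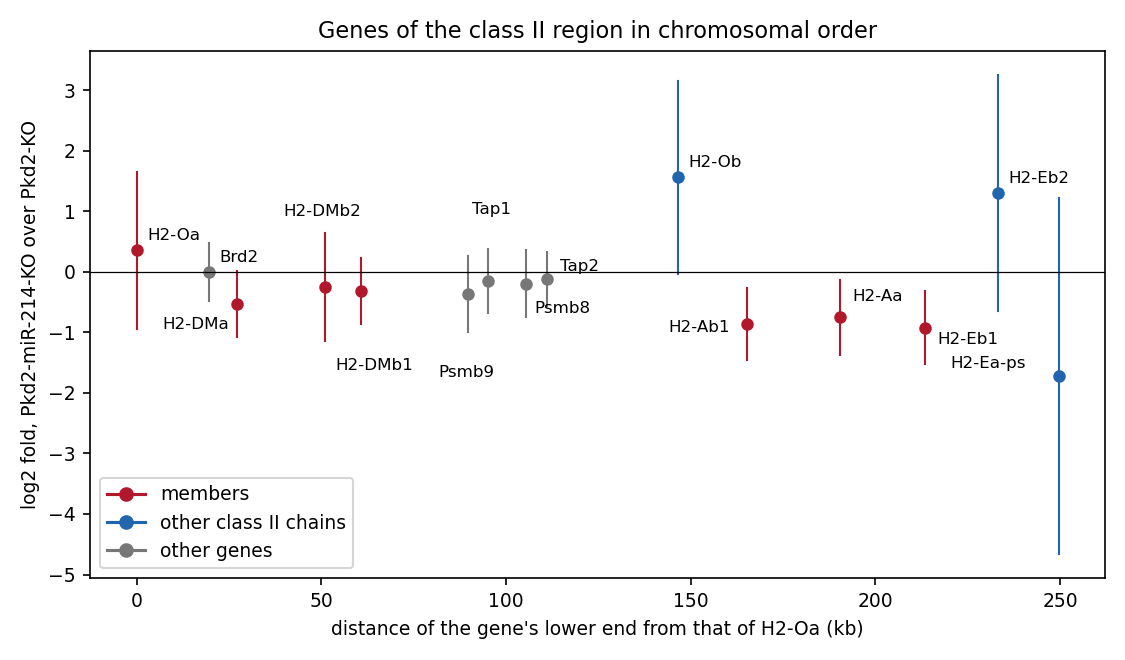
Log2 fold with its approximate 95% interval (y axis) for the 15 genes of the class II region, by the distance of each gene's lower end from that of H2-Oa in kb (x axis). H2-Ab1, H2-Aa and H2-Eb1 form a run of intervals below 0 between H2-Ob and H2-Eb2, which both have positive folds and intervals that include 0.

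Genes acting upstream of class II expression had folds near 0 in the authors' deposited table. Of the 7 subunits of factors on the X and Y boxes, 0 had an unadjusted p under 0.05 in either direction in the edgeR test, against 1.71% of all genes lower and 3.10% higher. Their median was 0.01 in the authors' deposited table. The RFX subunits, which hold the X box, had 0.01 ± 0.23 (Rfx5), 0.04 ± 0.24 (Rfxap) and -0.02 ± 0.23 (Rfxank) in the authors' deposited table. Interferon-gamma is the main inducer of Ciita outside professional presenting cells. Of 8 genes of its signalling, 0 had an unadjusted p under 0.05, against 1.71% of all genes lower and 3.10% higher. The median of the 8 was -0.03. In the authors' deposited table Ifng itself had -1.22 ± 0.99 at a mean log2 CPM of -3.23, a low level at which the approximate SE is poor. Irf1, an early target of the pathway that acts on the Ciita promoter, had -0.15 ± 0.21 and the receptor chain Ifngr1 0.41 ± 0.22 in the authors' deposited table. The interval of Rfx5 (-0.45 to 0.46) overlaps that of Ciita (-1.69 to -0.05), and whether their folds differ was not tested.

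Genes acting downstream, in the endosome, had folds whose intervals all include 0. Of 7 genes of class II processing and turnover 0 had an unadjusted p under 0.05 in the edgeR test, against 1.71% of all genes lower and 3.10% higher. A positive fold was held by 6 of them, against 10020 of all 20138 genes, and the median was 0.16 in the authors' deposited table. Ctss, the protease that trims the invariant chain, had 0.26 ± 0.22, Lgmn, an endosomal protease, 0.22 ± 0.31 and Ifi30, a thiol reductase that unfolds antigens, 0.16 ± 0.21 in the authors' deposited table. Over these 3 lists and the other chains together, 16 of 25 folds were positive, against 10020 of all 20138 genes.

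Class I presentation, the parallel pathway for peptides of the cytosol, showed smaller folds of the same sign. Of its 11 genes in the authors' deposited table, 10 had a negative fold, against 48.2% of all genes, with a median of -0.15. An unadjusted p under 0.05 in the edgeR test was held by 0 of them, against 1.71% of all genes lower and 3.10% higher. The class I heavy chain H2-K1 had -0.13 ± 0.29 and its partner B2m -0.16 ± 0.30 in the authors' deposited table. Nlrc5, which does for class I what Ciita does for class II, had the lowest fold of that list, -0.65 ± 0.41 in the authors' deposited table (adjusted p = 1).

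Markers of cells that carry class II did not share a sign from list to list, and their part in the class II folds was not tested. Of 14 dendritic cell markers 10 had a negative fold, against 48.2% of all genes. The list's median was -0.45, with a range of -2.07 to 0.54 in the authors' deposited table. None of the 14 passed an adjusted p under 0.05, against 0.124% of all genes. An unadjusted p under 0.05 was held by 0 with a positive fold, against 3.10% of all genes. With a negative fold it was held by 4, against 1.71% of all genes. These were Cd209a, a lectin of monocyte-derived and conventional dendritic cells (-2.07 ± 0.67, adjusted p = 0.290), Mgl2, a lectin of dendritic cells and some macrophages (-1.31 ± 0.48), and the integrin chains Itgae (-0.97 ± 0.46) and Itgax (-0.75 ± 0.37), all from the authors' deposited table. Flt3, the receptor for the growth factor of conventional dendritic cells, had -0.62 ± 0.43, the chemokine receptor Xcr1 -0.65 ± 0.53 and the lineage factor Zbtb46 0.02 ± 0.28 in the authors' deposited table. The positive folds besides were those of Clec10a, a lectin related to Mgl2 (0.54 ± 0.49), Siglech, a lectin of plasmacytoid cells (0.43 ± 0.63), and the homing receptor Ccr7 (0.20 ± 0.63) in the authors' deposited table. The list's mean log2 CPM ran from 0.65, for Cd209a, to 4.84. These means are over all 6 libraries and do not show the level in each group.

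B cell markers had positive folds throughout the list in the authors' deposited table, at 12 of 12, against 10020 of all 20138 genes. The list's median was 2.61. An unadjusted p under 0.05 was held by 10 of the 12 markers, against 3.10% of all genes higher. In the edgeR test 0 passed an adjusted p under 0.05, against 0.124% of all genes. The surface genes Ms4a1 (4.23 ± 1.14) and Cd79a (3.77 ± 1.11), the complement receptor gene Cr2 (3.05 ± 1.01) and the coactivator gene Pou2af1 (3.19 ± 0.94) had some of the largest folds in the authors' deposited table. The IgE receptor gene Fcer2a (2.17 ± 0.89), the adaptor gene Bank1 (1.60 ± 0.68), the inhibitory lectin gene Cd22 (1.37 ± 0.61) and the receptor chain gene Cd79b (1.36 ± 0.56) followed in the authors' deposited table, and Pax5, the B cell lineage factor, had 4.83 ± 1.57 at a low mean expression. The markers lay between -1.92 and 2.25 mean log2 CPM in the authors' deposited table, well under the classical chains at 7.24 to 7.70, though these are not per length. Both genes of H2-O, H2-Oa and H2-Ob, had positive folds too, but with intervals that include 0 (-0.94 to 1.65 and -0.03 to 3.15), so their sign is uncertain. Any link of class II folds to this list was not tested.

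Macrophage markers showed no common sign, with 8 of 14 folds positive, against 10020 of all 20138 genes. The list's median was 0.08 in the authors' deposited table. Emr1, which encodes F4/80, had -0.37 ± 0.27, the receptor gene Csf1r -0.03 ± 0.22 and the complement gene C1qa 0.21 ± 0.25 in the authors' deposited table. An unadjusted p under 0.05 was held by 2 of the 14, both positive, against 3.10% of all genes higher. They were Cd163, a hemoglobin scavenger receptor (1.76 ± 0.35, adjusted p = 0.00126), and Mrc1, the mannose receptor (0.51 ± 0.24, adjusted p = 0.926), in the authors' deposited table. Of the 4 pan-leukocyte markers 3 had a negative fold, against 48.2% of all genes, with a median of -0.12 in the authors' deposited table. Ptprc, which encodes CD45, had -0.06 ± 0.34, Laptm5 -0.17 ± 0.23 and Coro1a -0.29 ± 0.34 there. Cd53, a tetraspanin, had the 1 positive fold of this list, 0.50 ± 0.25 (adjusted p = 1) in the authors' deposited table. All 11 measured T and NK cell markers had negative folds, against 48.2% of all genes, with a median of -0.78 in the authors' deposited table. Gzmb, a granzyme of cytotoxic cells, had -1.92 ± 0.81. It was the 1 marker of these 11 with an unadjusted p under 0.05 in the edgeR test, against 1.71% of all genes lower. Cd3e, a chain of the T cell receptor complex, had -0.34 ± 0.64 in the authors' deposited table.

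**Figure D5:**
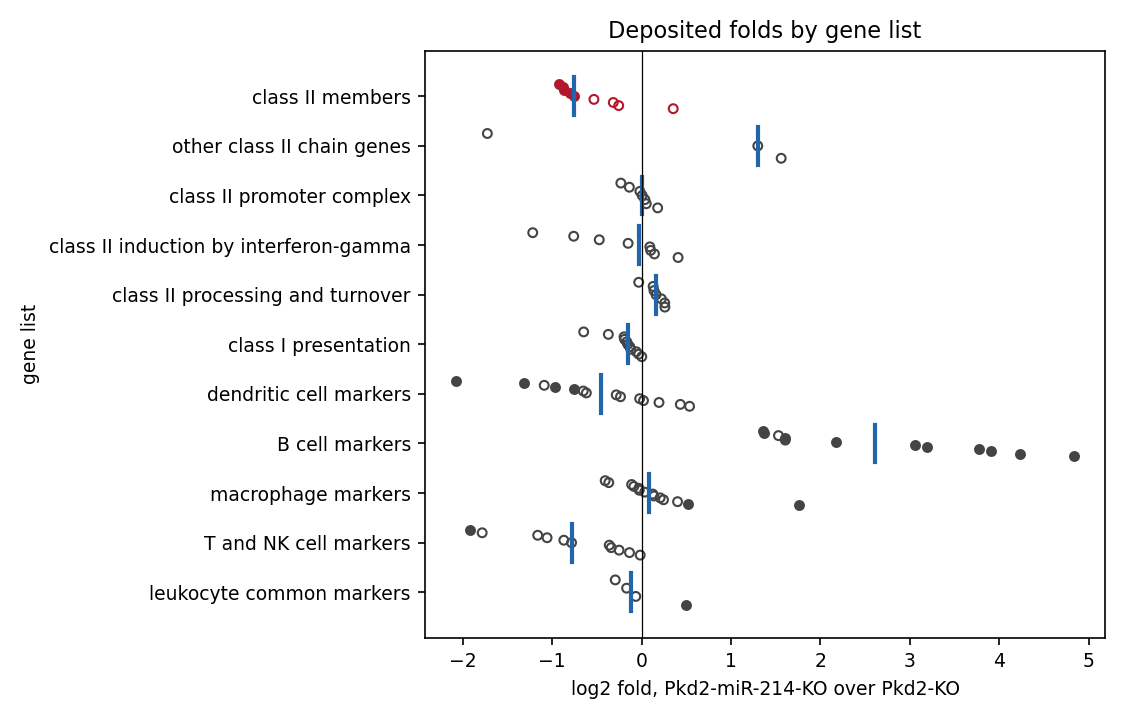
Log2 folds (x axis) of the 9 class II genes and of 10 other gene lists (y axis), 1 circle per gene, filled where the unadjusted p is under 0.05, with the median of each list as a blue bar. Class II genes (median -0.75), T and NK cell markers (-0.78), dendritic cell markers (-0.45) and class I genes (-0.15) lie mostly below 0, and B cell markers lie above 0 (median 2.61).

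Kidney tubule markers, which identify the tissue, had 7 of 9 negative folds and a median of -0.54 in the authors' deposited table, at mean log2 CPM from 7.34 to 11.40. A negative fold was held by 48.2% of all genes. None of the 9 markers had an unadjusted p under 0.05 in the edgeR test, against 1.71% of all genes lower and 3.10% higher. Xist, the RNA of the inactive X chromosome, had 10.21 ± 2.36 (adjusted p = 0.0168), and Ddx3y, on the Y chromosome, -0.23 ± 1.54 in the authors' deposited table. The labels do not give the sex of the animals, and a difference in sex between the groups cannot be told apart from genotype in any of these folds.

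The class II transcripts were also searched for sites of the 3p strand of the deleted microRNA, since a microRNA lowers transcripts that pair with its seed. The 5p strand was not searched. The 3p strand from RefSeq is shown with its seed, bases 2 to 8, in capitals.
miR-214-3p: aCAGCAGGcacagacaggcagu
The site that pairs with this seed, CCTGCTG, was present in the longest annotated 3′ UTR (the untranslated end of the transcript) of 1 of the 9 genes, against 21.3% of 16900 genes with such an annotation. Ciita held 3 copies in 2676 bases. The other 8 genes held none in UTRs of 228 bases (H2-Oa) to 1862 bases (H2-DMa). Whether the copies in Ciita are bound was not measured, and any part of them in its fold was not tested.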

How the data were processed

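RNA of 6 mouse kidneys was sequenced by the submitters. The series text speaks of polyA selection and the labels' protocol of a total RNA kit, so that step is unsettled. Per the submitters' processing notes, TopHat2 2.0.12, edgeR and mm10 were used. For settings, filters, counting and strand, the sources used here give nothing. The deposited table gives, per the file headers, a log2 fold, a mean log2 CPM, a likelihood ratio (a score on 1 degree of freedom) and p-values before and after adjustment for each gene, all fitted by the authors over 3 against 3 animals. The deposited p-values equalled the chi-square tail of the ratio (largest difference 6.25e-15), and the adjusted ones the Benjamini-Hochberg adjustment over 20138 genes (5.10e-14). Nothing shows how the animals were bred, so it is unknown whether the 6 samples are independent. The p-values weigh the difference between genotypes against the spread within them and take the samples as independent.

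No test was added. An SE was taken as the absolute fold over the root of its likelihood ratio, and intervals as 1.96 SE. This is poor at low counts. A planned rerun without each replicate needs values per library and was not run. The members, gene lists (117 of 118 genes matched) and motifs were chosen with earlier results of these data known. All members were named, with a set of genes fixed per list, every listed gene with an unadjusted p under 0.05, and the table's genes from H2-Oa to H2-Ea-ps. Some genes under this rule are not reported here. Positions, exon lengths and transcripts came from GENCODE M21, on the assembly of mm10. Computations ran in Python 3.11.15 with scipy 1.17.1, numpy 2.4.6, matplotlib 3.10.9 and pandas 2.3.3 and were tested on simulated data.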

Additional observations from a re-analysis of the deposited data

How the results depend on the processing

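No paired analysis was possible because values per library were not analysed here and the labels pair no animals, and for the first reason no animal could be left out. None of the 9 genes passed an adjusted p under 0.05 with folds centred on the median of genes with a mean log2 CPM of at least 5 (0.01) or with adjustment over genes with a mean log2 CPM of at least 0 or 1 (H2-Oa is outside the second). Centring on the median of all genes subtracts 0, and Benjamini-Yekutieli adjustment can only raise p, so neither bears on stability. The adjustments leave the folds as they are, and the shift of 0.01 turned no sign among the 9. The lowest adjusted p was 0.300, for H2-Eb1. The median of the 9 ran from -0.80 (without H2-DMb1 and H2-DMb2) to -0.55 (mean in its place). The motif pair was found in 3 genes with the wider spacing and with the Y motif GATTGG, at 1.38% and 0.310% of all promoters. Centring of the other lists was added after seeing the data. It subtracts the same constant, 0 or 0.01, from every gene, so the size of each median's shift was fixed in advance and says nothing of stability. The SE of low genes (H2-Oa, H2-Ob, H2-Eb2) limits what can be read from their folds.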

Other observations

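Co-stimulation, the second signal that presenting cells give to T cells, was measured beside class II. In the authors' deposited table Cd86 had a log2 fold of -0.17 ± 0.29 (SE), Cd40 -0.21 ± 0.35 and Cd80 0.14 ± 0.55. None had an unadjusted p under 0.05 in the edgeR likelihood ratio test, against 1.71% of all genes lower and 3.10% higher. Socs1, a feedback inhibitor of interferon-gamma signalling, had -0.76 ± 0.53 in the authors' deposited table. March1, a ubiquitin ligase that removes class II from the cell surface, had 0.13 ± 0.28 in the authors' deposited table.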
